A study of Mus musculus with 12 samples.

Results

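The genes Wdr72, Ank2, Clec2h, Tmc5, Ctse, Ear11 and Cebpe, 7 in all, were followed through the livers of 12 mice. They were picked from the 38926 gene symbols counted because their mean level at ZT20 differed at least 10-fold between wild-type and Rev-erbα-/- liver. The ZT20 libraries therefore chose the genes, and their ZT20 values are given as a description with no test. Of the 14488 genes with enough reads for a test, 47 (0.324%) met the 10-fold limit when a mean under the level of 3 reads per library was set to that level, and the 7 genes are among them. In Rev-erbα-/- liver at ZT20, 5 of them were lower and 2 were higher, and both counts follow from the choice. Of the 47 genes past the limit, 23 were lower and 24 higher. By the test, which is an unlike measure, 1.54% of all tested genes passed as lower and 2.09% as higher.

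RNA sequencing was performed on 3 wild-type (WT) and 3 Rev-erbα-/- (Rev KO) livers at ZT8 and on 3 of each at ZT20, where ZT is the time in hours after lights on. All mice were male and 12 weeks old, kept in 12 h of light and 12 h of dark with free access to food, and came from a 129Ola/C57BL6 mixed background. The knockout, which is present in every tissue, removes functional REV-ERBα (gene Nr1d1) and was maintained through heterozygous breeding. The labels do not say which mice were littermates, or which strain each mouse inherited at a given locus, so that loss of REV-ERBα and a difference in inherited strain segments between the groups cannot be told apart. Values are CPM, that is read counts per 1000000 reads of the effective library size, and 1 library stands for 1 liver.

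REV-ERBα is a nuclear receptor of the circadian clock that binds DNA and represses transcription. In liver it accumulates in the light phase, holds down Arntl (Bmal1) and other clock genes, and lets them recover at night. The 7 genes serve tasks outside the clock, from vesicle acidification to granulocyte maturation, and most are known from tissues other than liver.

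The libraries held between 17641809 and 26060192 counted reads, and 3 reads, taken as the smallest level a library can show, correspond to between 0.117 and 0.167 CPM. The hepatocyte marker list summed to between 56500 and 102000 CPM in every library. Reads remained on Nr1d1 in Rev KO liver, with 71.8 ± 8.78 CPM against 100 ± 26.9 in WT at ZT8 (SD, n = 3). Counts per symbol do not separate exons and do not check the deletion. The WT mice at ZT8 were split. Chi-square per degree of freedom was 82.7 and 141 for mouse 1 against mice 2 and 3. It was 15.2 between mice 2 and 3. Mice 2 and 3 had 4970 and 6490 CPM of the acute-phase transcript Saa1, and mouse 1 had 60.8. In the other 9 libraries Saa1 lay between 21.2 and 96.8, a range that holds mouse 1 and not mice 2 and 3.

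The genes lie on 6 chromosomes, and none on chromosome 11, which carries Nr1d1. Positions are those of mm10. RefSeq promoter windows were matched for 3 of the 7 genes, Ank2, Clec2h and Ear11. The 250 bases before the start of Clec2h and of Ear11 are printed because these genes stood at opposite ends, Clec2h near 0 in all Rev KO livers and Ear11 near 0 in WT livers at ZT20. Both are given 5′ to 3′ on the gene's strand from GRCm38.p6, with any TATAA in capitals. The Clec2h window is chr6:128662135-128662384 (plus strand) and the Ear11 window is chr14:51256113-51256362 (minus strand).
Clec2h: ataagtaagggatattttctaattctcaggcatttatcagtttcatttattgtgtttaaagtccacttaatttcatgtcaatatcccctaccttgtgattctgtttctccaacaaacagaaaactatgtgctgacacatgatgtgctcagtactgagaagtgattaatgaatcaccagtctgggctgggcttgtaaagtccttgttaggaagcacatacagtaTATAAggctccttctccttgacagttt
Ear11: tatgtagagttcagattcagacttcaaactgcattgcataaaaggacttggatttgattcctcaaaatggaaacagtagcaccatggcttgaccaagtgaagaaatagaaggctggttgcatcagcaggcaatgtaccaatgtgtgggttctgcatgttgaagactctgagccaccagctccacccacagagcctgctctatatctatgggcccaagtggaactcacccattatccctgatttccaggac
A TATAA stood 27 bases before the start of Clec2h, and none was in the Ear11 window. The letters AGGTCA, a site that REV-ERBα recognises, were searched on both strands in all 32851 windows of the table, which run from 250 bases before to 50 after a start, and occurred in 16.3% of them. The E-box CACGTG occurred in 7.15%, and TATAA in 24.9%. Neither AGGTCA nor CACGTG was found in the windows of Clec2h, Ear11 or Ank2, which has 4 windows, 1 of them with a TATAA.

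**Figure D1:**
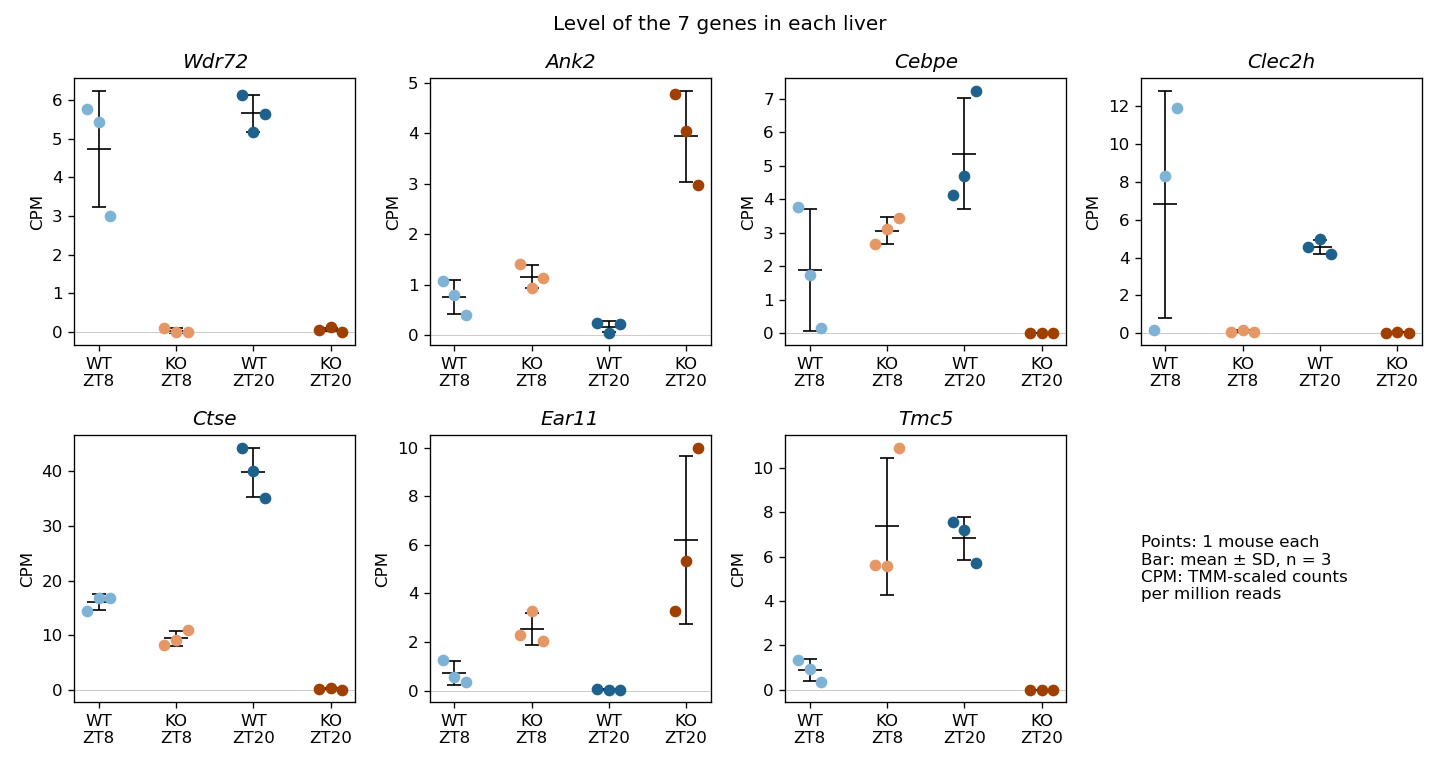
Level of each gene in CPM (linear axes) in the 12 livers, with 1 point per mouse and the mean ± SD of 3 mice as bars. Wdr72 and Clec2h are near 0 in both Rev KO groups, Ctse, Cebpe and Tmc5 are near 0 in the Rev KO group at ZT20 and present at ZT8, and Ank2 and Ear11 are lowest in the WT group at ZT20.

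The 10-fold limit did not use ZT8, where 4 of the 7 passed the threshold of 0.05 on the adjusted p-value (edgeR's quasi-likelihood test). Of all tested genes 8.45% passed there, and of the 47 genes past the limit 9 did. The 7 were picked with earlier results of these data known, so that 4 of 7 is not a test of the set. The fit also drew its spread and its filter on low counts from all 12 libraries, those of ZT20 included. Wdr72, Clec2h and Ctse were lower in Rev KO liver (background 4.04%) and Tmc5 was higher (background 4.4%). Ank2, Ear11 and Cebpe did not pass. The genotypes did not overlap at ZT8 for 5 genes, where 25.6% of all tested genes showed no overlap. Only Wdr72 and Clec2h were at least 10-fold apart at ZT8 too, which 0.104% of the tested genes were. The set as a whole is therefore described by its limit at ZT20 and not as genes that are on in one genotype and off in the other. In absolute terms, the median log2 fold change of the 7 genes at ZT8 was 1.74, and that of all tested genes was 0.169. The former is the value of Ear11, which did not pass, and no comparison was made with genes of a like level.

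Wdr72 (chromosome 9, 74110356 to 74283308, plus strand) encodes a WD-repeat protein needed for enamel formation and related to the rabconnectins, which act in the acidification of vesicles. At ZT8, WT livers had 5.77, 5.43 and 3.00 CPM of Wdr72, and Rev KO livers had 0.104, 0 and 0. At ZT20, WT livers had 6.14, 5.17 and 5.64 CPM, and Rev KO livers 0.042, 0.117 and 0. All 6 WT mice were far above all 6 Rev KO mice, in which 6 reads were counted altogether, 2 at ZT8 and 4 at ZT20. The ratio of WT to Rev KO was 139 at ZT8 (95% exact counting interval 38.2 to 1150) and 102 at ZT20 (39.3 to 375). Both Rev KO means lie under the level of 3 reads per library, and set to that level they give ratios of 30.3 and 45.1. At ZT8 the log2 fold change was -6.88 with a standard error of 0.56 (adjusted p = 2.74e-06, edgeR; exact two-sided permutation p = 0.1, which is the lowest possible with 3 mice per group). Without Rev KO mouse 1, which held both ZT8 reads of its group, the fitted value was -9.71. Within WT, the levels of both times overlapped. Markers of kidney tubule, where Wdr72 is also expressed, summed to at most 0.0885 CPM in any library, and Slc12a1 and Kap had no read.

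Ank2 (chromosome 3, 126921612 to 127499350, minus strand) encodes ankyrin-B, an adaptor that ties membrane proteins to the spectrin skeleton. Its levels at ZT8 were 1.07, 0.797 and 0.407 CPM in WT and 1.40, 0.944 and 1.13 in Rev KO. At ZT20 they were 0.233, 0.0442 and 0.224 CPM in WT and 4.78, 4.05 and 2.98 in Rev KO. The groups overlapped at ZT8 and were fully apart at ZT20, where the Rev KO mice were the high ones. The ratio of Rev KO to WT was 1.48 at ZT8 (1.01 to 2.17) and 23.9 at ZT20 (13.2 to 48.5). These intervals cover counting error only and not the spread between mice. In the ZT8 fit, Ank2 had a log2 fold change of 0.58 with a standard error of 0.37 (adjusted p = 0.367, edgeR; exact permutation p = 0.2). From ZT8 to ZT20, WT was 4.75 times lower (2.44 to 10.1) and Rev KO 3.41 times higher (2.60 to 4.52), given as a description because these ratios share the ZT20 libraries. The span of Ank2 holds 17 other annotated genes, and reads were counted without regard to strand. A read that fell on Ank2 and on another annotated gene was left out, which could lower the count. Reads of antisense transcripts that were not annotated cannot be told apart.

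Clec2h (chromosome 6, 128662385 to 128677374, plus strand) encodes a C-type lectin-like surface protein from the natural killer gene complex. At ZT8, WT mice 1, 2 and 3 had 0.199, 8.32 and 11.9 CPM, from 5, 167 and 234 reads, and Rev KO mice had 0.0519, 0.167 and 0.049. At ZT20, WT mice had 4.56, 4.95 and 4.20 CPM and Rev KO mice 0.042, 0.0779 and 0.0445. The groups did not overlap at either time, but WT mouse 1 at ZT8 was close to the Rev KO mice and 59.8 times below mouse 3. The ratio of WT to Rev KO was 72.2 at ZT8 (30.7 to 224) and 82.3 at ZT20 (31.8 to 304). With the Rev KO means, again under it, set to 3 reads per library, the ratios are 43.5 and 36.5. The ZT8 log2 fold change of Clec2h was -6.18 with a standard error of 1.48 (adjusted p = 0.0384, edgeR; exact permutation p = 0.1). The call did not hold with the replicate block or without the filter on low counts, and passed in 1 of 12 fits that left out a library each, the fit without WT mouse 1 (log2 fold change -6.77, adjusted p = 3.96e-09, edgeR). The value was -6.90 without Rev KO mouse 2 and -5.48 without WT mouse 3 of ZT8. DESeq2 gave an adjusted p of 5.27e-09.

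The split within the WT mice at ZT8 was also present in acute-phase transcripts. Lcn2, a siderophore-binding protein, was at 3.30, 307 and 393 CPM in WT mice 1, 2 and 3 at ZT8, and Orm2 was at 9.51, 313 and 425. At ZT20, the WT mice had between 2.64 and 6.88 CPM of Lcn2, and Clec2h was at 4.20 or more in each. Over the 12 mice, Clec2h had a Pearson r of 0.77 with Saa1, 0.70 with Saa2, 0.67 with Orm2 and 0.73 with Lcn2. These r values also reflect the differences between the groups of mice, and no test was made of them. The part of the acute-phase state in the level of Clec2h was not tested. The acute-phase genes were looked at after their values were seen.

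Tmc5 (chromosome 7, 118597297 to 118675086, plus strand) belongs to the transmembrane channel-like family, whose best-known members serve hearing. At ZT8, WT livers had 1.35, 0.947 and 0.356 CPM and Rev KO livers 5.61, 5.56 and 10.9. At ZT20, WT livers had 7.54, 7.21 and 5.73 CPM, and no read was counted in the 3 Rev KO livers, against 453 reads in WT. The Rev KO mice all lay above the WT mice at ZT8 and all below them at ZT20. The ratio of Rev KO to WT at ZT8 was 8.08 (6.16 to 10.8), and at ZT20 WT was at least 54.4-fold higher, taken against 3 reads per library. For Tmc5, the log2 fold change at ZT8 was 3.01 with a standard error of 0.41 (adjusted p = 0.00189, edgeR; exact permutation p = 0.1). The Rev KO livers at ZT8 were at least 58.7-fold above those at ZT20, while WT was 7.37 times higher at ZT20 than at ZT8 (5.62 to 9.82).

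Ctse (chromosome 1, 131638306 to 131675505, plus strand) encodes cathepsin E, an intracellular aspartic proteinase best known from stomach and immune cells. At ZT8, WT livers had 14.5, 16.9 and 16.9 CPM and Rev KO livers 8.26, 9.17 and 11.0. At ZT20, WT livers had 44.2, 40.0 and 35.1 CPM and Rev KO livers 0.126, 0.312 and 0.0445. The groups did not overlap at either time, and the Rev KO mice were the low ones at both. The ratio of WT to Rev KO was 1.68 at ZT8 (1.51 to 1.87) and 238 at ZT20 (136 to 462). In the ZT8 fit, Ctse had a log2 fold change of -0.76 with a standard error of 0.15 (adjusted p = 0.00603, edgeR; exact permutation p = 0.1). Rev KO livers had 57 times more Ctse at ZT8 than at ZT20 (32.4 to 111), and WT livers 2.49 times more at ZT20 (2.31 to 2.67), again as a description.

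Ear11 (chromosome 14, 51255262 to 51256112, minus strand, annotated as Rnase2a) encodes a ribonuclease of the eosinophil-associated family. At ZT8, WT livers had 1.27, 0.548 and 0.356 CPM and Rev KO livers 2.29, 3.28 and 2.06. At ZT20, WT livers had 0.093, 0.0442 and 0.0447 CPM and Rev KO livers 3.27, 5.34 and 10.0. The Rev KO mice were above the WT mice at both times without overlap. The ratio of Rev KO to WT was 3.26 at ZT8 (2.35 to 4.59) and 102 at ZT20 (39.4 to 374), or 45.8 at ZT20 with the WT mean set to 3 reads per library. At ZT8 the log2 fold change of 1.74 with a standard error of 0.50 did not pass the threshold (adjusted p = 0.0549, edgeR; exact permutation p = 0.1). DESeq2 called it (adjusted p = 0.00301), as did the edgeR fit of the 6 ZT8 libraries alone and 3 of the 12 fits that left out a library each. WT was 12.8 times lower at ZT20 than at ZT8 (4.70 to 48.8), or 5.36 times with its ZT20 mean set to 3 reads per library.

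Cebpe (chromosome 14, 54710360 to 54712174, minus strand) encodes C/EBPε, a transcription factor of granulocyte maturation. At ZT8, WT mice 1, 2 and 3 had 3.78, 1.74 and 0.153 CPM, from 95, 35 and 3 reads, and Rev KO mice had 2.65, 3.11 and 3.43. At ZT20, WT mice had 4.14, 4.69 and 7.25 CPM, and no read was counted in the Rev KO mice, against 357 reads in WT. The groups overlapped at ZT8, where WT mouse 1 was 24.8 times above mouse 3. Rev KO over WT was 1.5 at ZT8 (1.19 to 1.89), and at ZT20 WT was at least 42.7-fold higher. The interval covers counting error only and not the spread between mice. The ZT8 log2 fold change of Cebpe was 0.64 with a standard error of 0.72 (adjusted p = 0.651, edgeR; exact permutation p = 0.4). The Rev KO livers at ZT8 were at least 24.4-fold above those at ZT20.

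**Figure D2:**
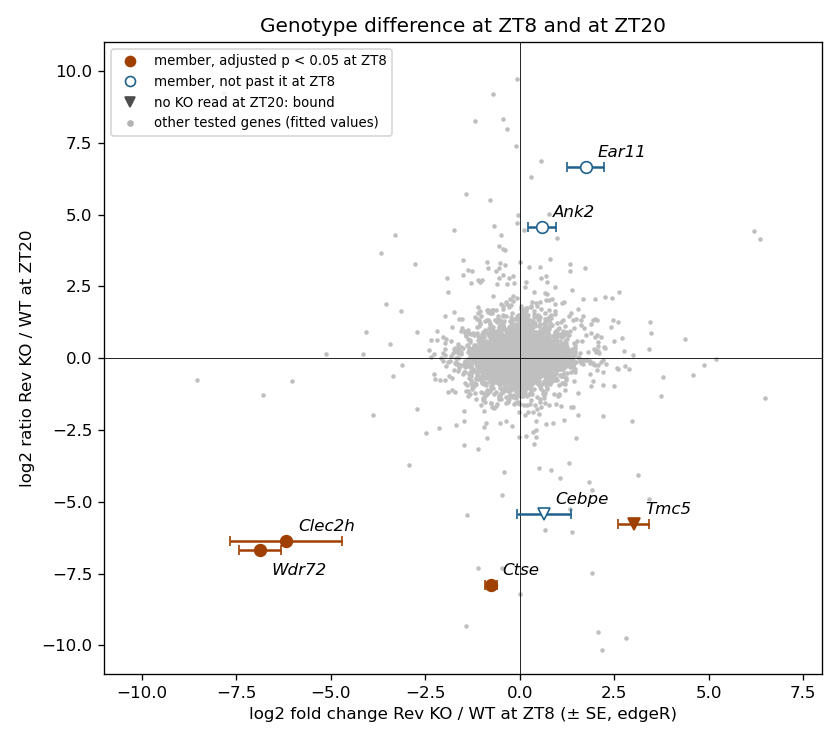
Log2 difference between Rev KO and WT at ZT8 (horizontal, ± SE) and at ZT20 (vertical) for the 7 genes over all other tested genes in grey. At ZT20 the 7 genes are drawn at the ratio of summed reads, and triangles are bounds against 3 reads per library. Grey points are values fitted by edgeR, so that vertical positions of the 7 genes and of grey points are unlike measures. Wdr72 and Clec2h lie low on both axes, Tmc5 and Cebpe lie to the right of 0 at ZT8 and below 0 at ZT20, and Ank2 and Ear11 lie above 0 on both.

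Per length of annotated exons, which allows genes to be compared, Ctse had the highest level of the 7 genes in WT liver at ZT20 with 12.5 CPM per kb, followed by Cebpe with 4.32, Clec2h with 1.69, Tmc5 with 1.53 and Wdr72 with 0.755. In Rev KO liver at ZT20, Ear11 led with 8.99 CPM per kb and Ank2 had 0.113. Reads were counted only when they mapped to a single place, and close copies of a gene could therefore lower its count. Of the stretches of 75 bases in the annotated transcripts, none was shared with another gene for Wdr72, Cebpe, Ctse and Ear11, 0.0224% for Tmc5, 0.108% for Ank2 and 1.03% for Clec2h, the last with Clec2i.

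In the WT group at ZT8, mouse 3 was the lowest of its group for 5 of the 7 genes, Wdr72, Ank2, Cebpe, Ear11 and Tmc5, whereas mouse 1 was the lowest for Clec2h and Ctse. Over all tested genes, mouse 3 was the lowest for 37.3%. The distance between the highest and the lowest WT mouse at ZT8 was 1.16-fold for Ctse and between 1.92-fold and 59.8-fold for the other 6 genes.

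Genes with near-identical courses over the 12 mice were sought by the correlation of log2(CPM + 0.5). The mice fall into 4 groups, which much of any correlation reflects, and no test was made. For Cebpe and Tmc5 the same ribosomal pseudogenes came first, Rps13-ps1 (Pearson r = 0.968 and 0.961) and Rps15a-ps8 (0.968 and 0.958). Rps13-ps1 had 9.55, 2.49 and 0 CPM in WT mice 1, 2 and 3 at ZT8, between 17.1 and 20 in Rev KO at ZT8, between 21.1 and 23.1 in WT at ZT20, and 0.042 or less in Rev KO at ZT20. It thus repeated the order of Cebpe within the WT mice at ZT8 and the lack of reads in Rev KO at ZT20. Rps15a-ps8 ran the same way, from 0.0508 to 7.28 CPM in WT at ZT8 and at 0.0445 or less in Rev KO at ZT20. Both pseudogenes have many close copies, so that their counts are uncertain.

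Clec2h was most like BC048546 (r = 0.974), which had 1.07, 7.32 and 12.2 CPM in WT mice 1, 2 and 3 at ZT8, and Bid (r = 0.947), which lies 7.75 Mb away and encodes a mediator of cell death. Ank2 was most like the ribosomal protein gene Rpl34 (r = 0.925), 3.23 Mb away, and Odc1 (r = 0.919), the first enzyme of polyamine synthesis. Rpl34 had 1.79 ± 0.229 CPM in WT and 32.9 ± 0.855 in Rev KO at ZT20 (SD, n = 3). Its WT values at ZT8 were 15.5, 7.02 and 1.78 CPM, with the same mouse lowest as for Ank2. Ear11 was most like Mme (r = 0.957), which encodes the peptidase neprilysin, and the complement gene C4a (r = 0.950). Ctse was most like Robo1 (r = 0.965) and Wdfy1 (r = 0.964), and Wdr72 was most like Rnf186 (r = 0.926) and Irf2 (r = 0.922), all 4 with smaller differences between the genotypes. Rnf186, a ubiquitin ligase, had 7.03 ± 0.449 CPM in WT and 2.99 ± 0.595 in Rev KO at ZT8, and 6.85 ± 0.377 and 3.46 ± 0.619 at ZT20.

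**Figure D3:**
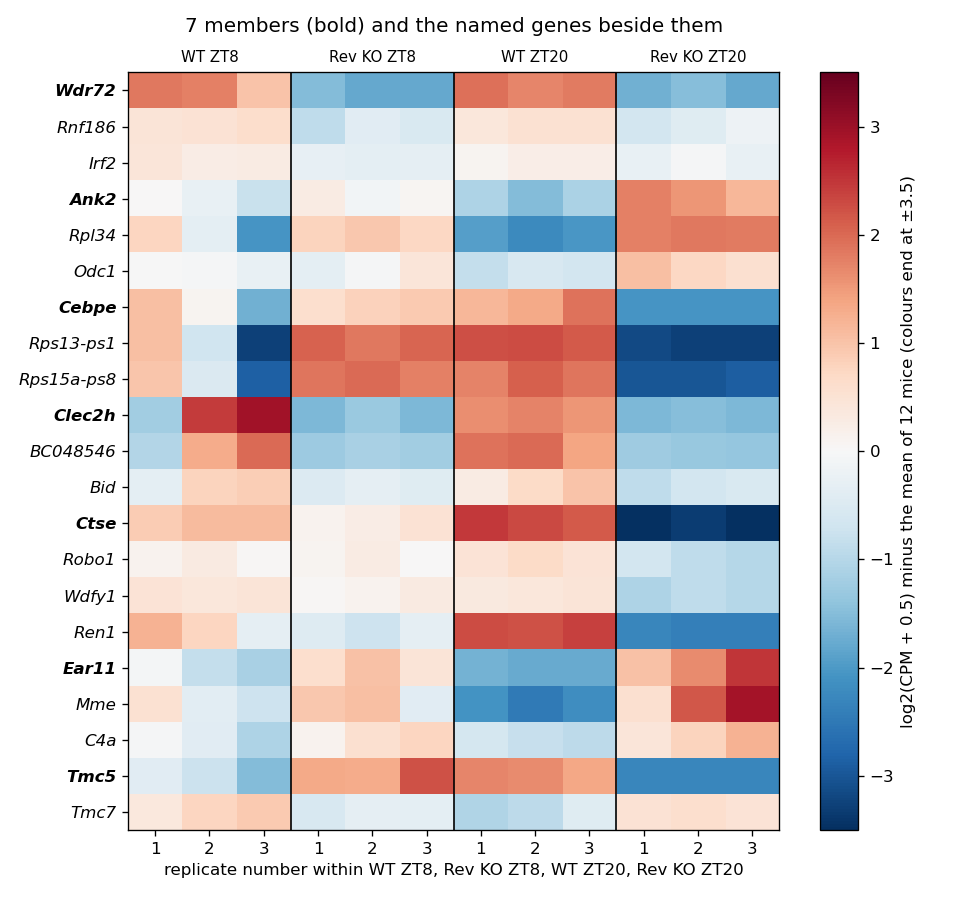
Difference of log2(CPM + 0.5) from the mean of 12 mice for the 7 genes (bold) and the genes named beside them, with 1 column per mouse in 4 groups of 3 mice. Rps13-ps1 and Rps15a-ps8 follow Cebpe through all 4 groups including the split among the WT mice at ZT8, and BC048546 follows Clec2h.

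Among the 20 genes most like Cebpe by the size of r, in either direction, 8 lay on its own chromosome, which holds 3.32% of the tested genes. Tmc5 had 6 such genes (7.39% of tested genes), Clec2h 5 (4.87%), Ctse 4 (5.8%), Ank2 3 (4.86%), Wdr72 2 (5.33%) and Ear11 0 (3.32%). The correlations include the ZT20 values that chose the 7 genes. This count was added after the values were seen and has no test. Cebpe and Ear11, 3.45 Mb apart on chromosome 14, had r = -0.63 over the 12 mice. Both had the higher mean in Rev KO at ZT8, and they differed in direction at ZT20, whose values chose them.

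Genes near the 7 members on the same chromosome were looked at too. The part of inherited strain segments in their levels was not tested. Within 1 Mb of a member, 150 genes were tested, and 26 of them (17.3%) differed between the genotypes at ZT20 (edgeR, adjusted p below 0.05), against 3.63% of all tested genes. Of these, 10 were lower and 16 higher in Rev KO liver. Within 0.25 Mb the share was 27.9% (12 of 43), and within 5 Mb it was 10.4% (48 of 463). At ZT8, 16 neighbours within 1 Mb (10.7%) differed, against 8.45% of all tested genes. The ZT8 count was 29 without WT mouse 1, 7 without WT mouse 2, and 9 without WT mouse 3 or Rev KO mouse 2 of that time. The ZT20 count was 15 (10%) without WT mouse 2 of that time, where 1.62% of all tested genes passed, and 17 (11.3%) without Rev KO mouse 2, where 1.78% passed. Around Nr1d1 itself, 0 of 36 genes within 1 Mb differed at ZT20 and 6 at ZT8 (16.7%). Within 5 Mb of it, 4 of 193 genes differed at ZT20 (2.07%) and 20 at ZT8 (10.4%). Neighbours are not independent of each other and were measured in the libraries that chose the 7 genes, and no test was made of these shares.

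The neighbours differed from member to member. At ZT20, 0 of 6 genes within 1 Mb of Wdr72 passed the threshold in edgeR, 2 of 22 near Clec2h, 3 of 30 near Ctse, 8 of 44 near Cebpe, 4 of 16 near Tmc5, 7 of 25 near Ear11 and 2 of 7 near Ank2. The gene nearest to Tmc5 on one side, Tmc7 at 12.6 kb, belongs to the same family and passed at both times in the direction opposite to Tmc5. Its WT values were 6.96, 9.32 and 10.5 CPM at ZT8 and 2.33, 2.57 and 3.80 at ZT20, and its Rev KO values were 3.48, 4.22 and 4.06 at ZT8 and 7.72, 8.22 and 7.60 at ZT20. The log2 fold change of Tmc7 was -1.18 at ZT8 (adjusted p = 0.000982, edgeR) and 1.44 at ZT20 (adjusted p = 0.000334). Gde1, on the other side of Tmc5 at 13.5 kb, did not pass at either time.

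Camk2d, 75.3 kb from Ank2, was higher in Rev KO liver at ZT20 (11.4 ± 0.941 against 4.53 ± 0.801 CPM; log2 fold change 1.33, adjusted p = 4.33e-05, edgeR), and at ZT8 its log2 fold change was 0.08 (adjusted p = 0.785). It encodes a calcium-dependent kinase, and like Ank2 it was apart at ZT20 and overlapped at ZT8. The nearest genes to Cebpe, 1700123O20Rik at 19.6 kb and Slc7a8 at 10.0 kb, passed at neither time, as did Larp7 near Ank2, Gm5884 and BC035044 near Clec2h, Fam72a near Ctse, Rnase6 and Mettl17 near Ear11, and Rsl24d1 and Gm16551 near Wdr72. 5430435G22Rik, 13.2 kb from Ctse, was higher in Rev KO liver at ZT20 (log2 fold change 1.35, adjusted p = 0.0255, edgeR), where Ctse was lower. At ZT20, the passing neighbours of Cebpe, Clec2h, Ctse and Ear11 lay in both directions, and those of Ank2 and Tmc5 were all higher in Rev KO liver.

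**Figure D4:**
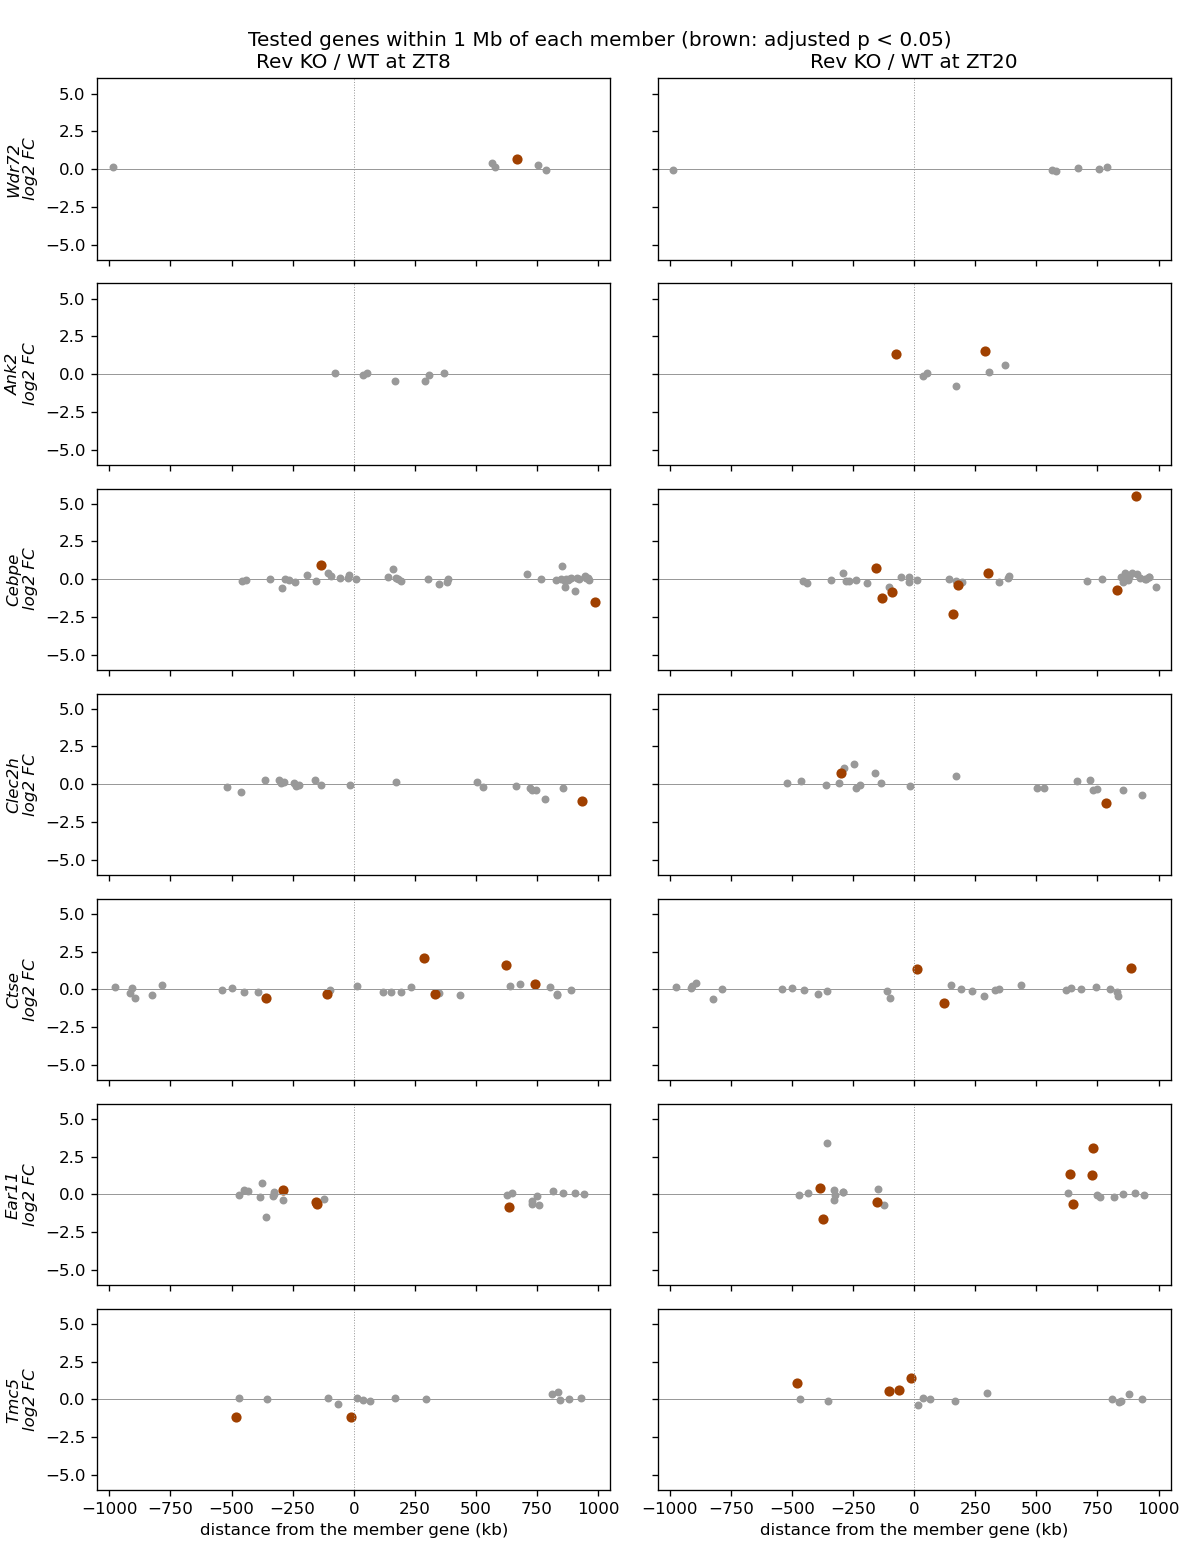
Log2 fold change (Rev KO over WT, edgeR) of each tested gene within 1 Mb of a member against its distance in kb, at ZT8 on the left and ZT20 on the right, with 1 row per member; brown points passed an adjusted p of 0.05. At ZT20, passing genes lie both above and below 0 around Cebpe, Clec2h, Ctse and Ear11, and no gene passes around Wdr72.

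Relatives of the 7 genes were taken from family lists. Of 15 tested aspartic proteinases and cathepsins, 1 passed the edgeR threshold at each time, Ren1, the gene of renin, which lies 1.68 Mb from Ctse. Ren1 had 12.5 ± 0.717 CPM in WT and 0.014 ± 0.0242 in Rev KO liver at ZT20, and 3.74 ± 2.00 and 1.39 ± 0.258 at ZT8 (SD, n = 3; log2 fold change at ZT8 -1.44, adjusted p = 0.0306, edgeR). Some mouse strains carry an extra copy of the renin gene, and the count is uncertain for that reason. The abundant lysosomal cathepsins Ctsb, Ctsl, Ctsd and Ctsh did not pass at either time, with log2 fold changes between -0.12 and 0.27.

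Among 4 tested relatives of Ear11, Rnase4 and Ang fell at ZT8 and Ang at ZT20. Ang, a ribonuclease gene near Ear11, went from 251 ± 11.9 to 178 ± 8.92 CPM at ZT8 (log2 fold change -0.50, adjusted p = 0.000498, edgeR). Of 5 tested Tmc genes, 1 passed at each time, Tmc7. Among the ankyrin and spectrin genes, Ank3 fell at ZT8 (log2 fold change -1.19, adjusted p = 0.0108, edgeR), and none of the 5 tested passed at ZT20. Of 6 genes listed by name as C/EBP relatives, Cebpz and Ddit3 rose at ZT8 by 0.26 and 0.70 on the log2 scale (adjusted p = 0.0441 and 0.00433, edgeR). None of the 6 passed at ZT20. The rabconnectin gene Dmxl2 rose at both times, with a log2 fold change of 0.55 at ZT8 (adjusted p = 0.00108, edgeR) and 0.40 at ZT20 (adjusted p = 0.0172). Dmxl1 rose at ZT8 (log2 fold change 0.39, adjusted p = 0.012, edgeR). Clec2d, the relative of Clec2h with enough reads, passed at neither time.

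REV-ERBα targets and clock genes passed the threshold more often at ZT8 than at ZT20. Of 23 tested, 8 rose at ZT8 and 1 fell, where 4.4% and 4.04% of all tested genes did (edgeR). At ZT20, 1 of them, Nr1d2, rose, where 2.09% of all tested genes did. Arntl had 0.652 ± 0.181 CPM in WT and 24.2 ± 1.52 in Rev KO at ZT8, a difference of 5.18 on the log2 scale (adjusted p = 2.22e-12, edgeR), while at ZT20 it was at 44.3 and 43.7. The 7 genes were chosen for a difference at ZT20, so that a contrast with the clock genes in time of day follows from the choice. At ZT8, 4 of the 7 passed too. Of the 7 genes, 2, Tmc5 and Cebpe, had group means that lay in opposite order at ZT8 and ZT20.

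Some of the genes are known from cell types other than hepatocytes, and in whole liver fewer cells of a type and less RNA per cell cannot be told apart. The 10 granulocyte markers, of which 2 had enough reads for a test and neither passed, summed to between 1.91 and 8.63 CPM in WT and between 0.714 and 1.29 in Rev KO livers at ZT20, where Cebpe had no read in Rev KO. At ZT8 they summed to between 1.11 and 7.07 and between 0.883 and 3.48. The part of these cells in the level of Cebpe was not tested. Eosinophil markers, with 4 of 5 in the files, summed to between 0.0889 and 1.09 CPM in Rev KO and between 0.133 and 0.582 in WT livers at ZT20, with 1 marker high enough for a test, which did not pass. Their part in the level of Ear11 was not tested. The 8 stomach and gut markers, with Gkn1 and Gkn2 at 0, summed to between 18.3 and 19.6 CPM in WT and 9.56 and 13 in Rev KO at ZT8. At ZT20 they summed to between 3.72 and 12.7 and between 9.69 and 14.9, and the ranges overlapped. Of these markers, only 1, Lgals4, had enough reads for a test, and it did not pass. Lgals4 made up most of the sums, with means of 18.6 CPM in WT and 10.9 in Rev KO at ZT8. At ZT20 its means were 7.28 and 11.5 CPM. The part of these markers in the level of Ctse was not tested.

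The limit of 10-fold lay within a continuous range. Just inside it at ZT20 were Serpine2 (10.3-fold), Asns (10.4-fold) and Gm12445 (11.5-fold), and just outside were Klhl33 (9.98-fold), Mup5 (9.75-fold) and Serinc2 (9.65-fold). For Gm12445, Klhl33 and Mup5 the lower mean was under the level of 3 reads per library and set to it, so that their true ratios may be larger. Of the 47 genes past it, 24 were higher and 23 lower in Rev KO liver, 5 were at least 10-fold apart at ZT8 too, and 9 passed the threshold at ZT8.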

How the data were processed

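Liver RNA of 12 mice was measured, and groups and replicate numbers were taken from the labels. The authors prepared poly(A) libraries, mapped reads of up to 75 bases with TopHat to mm10, and used HTSeq to count reads with a unique place for each gene symbol (union mode, minimum alignment quality 10, strand ignored). The deposited values are raw counts, without normalization. The authors used DESeq2 1.6.3. Reads without a gene or with several amounted to between 13.5% and 15.6% of the counted reads and were left out. Alignments without a unique place were left out too and were more numerous, between 28053940 and 62982328 per library. In WT mice 1, 2 and 3 at ZT8 they numbered 42716496, 56616751 and 62982328. The lowest number was that of Rev KO mouse 3 at ZT20.

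Counts were filtered with filterByExpr and scaled by TMM, and a robust quasi-likelihood model with 4 group means over 12 libraries was run in edgeR 4.0.16 (R 4.3.3) with Benjamini-Hochberg adjustment over 14488 genes and a threshold of 0.05. The authors' tool, DESeq2 (here 1.42.0), was an alternative. The fit was tested on simulated data. All 7 genes passed the filter, which most could do through the group in which they were high. Ratios are summed reads per effective library size with 95% exact intervals, which cover counting error only. Replicates were taken as separate mice, which the labels do not state in so many words, and p-values measure the spread between these samples, which may be technical.

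The members and lists were chosen with earlier results of these data known. Named are the 7 genes, for each the 2 genes with the highest Pearson r over 12 mice and the nearest tested gene on either side, Nr1d1, the most abundant or passing genes of each list, and 3 genes on either side of the 10-fold limit. Positions come from GENCODE M21 (mm10) for 14327 tested genes, 615 of them through a RefSeq synonym. Same-numbered mice of different groups did not deviate together (mean correlation -0.0183, with 1 of 18 pairs above 0.1). Results for some members of the gene lists are not reported here.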

Additional observations from a re-analysis of the deposited data

Results flagged for a closer look

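The genotypes separated fully in opposite directions at ZT8 and ZT20 for 11 of the genes looked at, and the difference between the times was not tested. Tmc5 had a log2 fold change (Rev KO over WT, edgeR) of 3.01 at ZT8 and no read in Rev KO at ZT20. The pseudogenes most like it, Rps13-ps1 and Rps15a-ps8, had 2.16 and 2.07 at ZT8 and each had 1 read in the 3 Rev KO libraries together at ZT20. The remaining 8 genes are neighbours within 1 Mb of a member, singled out after their values were seen. Near Tmc5, Tmc7 had -1.18 at ZT8 and 1.44 at ZT20, Rps15a had -1.14 and 1.09, and Coq7 had -0.29 and 0.61. Near Ear11, Rnase4 had -0.62 and 0.36, Slc39a2 had -0.86 and 1.34, and Gm26782 had 0.77 and -1.62. Ajuba, near Cebpe, had 0.91 and -1.24, and Slc45a3, near Ctse, had 2.04 and -0.42. Of all 14488 tested genes, 459 (3.17%) separated in this way, and of the 150 neighbours 8 (5.33%).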

How the results depend on the processing

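Wdr72, Ctse and Tmc5 passed the threshold at ZT8 in all 18 alternative fits, and Ank2 and Cebpe in none. Clec2h passed in 3 of the 16 fits that gave it a value and was removed by the filter in the other 2, and Ear11 passed in 5 of 18. No member changed direction at ZT8 or at ZT20, but single libraries moved fitted log2 values. Beside Wdr72 and Clec2h at ZT8, Cebpe at ZT8 went from 0.64 to 1.67 and Ear11 from 1.74 to 2.46 without WT mouse 1 of ZT8. Without Rev KO mouse 2 of ZT20, Wdr72 at ZT20 went from -6.53 to -7.69 and Ctse from -7.85 to -8.75. The number of members passing at ZT8 was 4, and between 3 (without Rev KO mouse 2 at ZT20, among others) and 5 (without WT mouse 1 at ZT8) when a library was left out. All genes passing at ZT8 numbered 1224, 769 in the fit of only the 6 libraries compared, 472 at an adjusted p of 0.01, and between 542 (without WT mouse 2 at ZT8) and 1811 (without WT mouse 1 at ZT8) when a library was left out. It was 607 without Rev KO mouse 2 and 749 without WT mouse 3 of ZT8. Passing neighbours within 1 Mb numbered 16 at ZT8, 8 with only the 6 libraries, 7 at an adjusted p of 0.01, and between 7 and 29 without the same mice, against 5 within 250 kb and 45 within 5 Mb. Passing neighbours at ZT20, a count added after seeing the data, numbered 26, and between 15 (without WT mouse 2 at ZT20) and 30 (without WT mouse 1 at ZT8) when a library was left out. Apart from the smaller sets of libraries and genes, the causes were not tested. With the replicate number as a block, 3 members and 1210 genes passed, and Clec2h was lost. The numbers do not pair the mice. At these depths, levels below 0.117 to 0.167 CPM cannot be told from 0.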

Other observations

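Markers of other cell types in the liver gave few calls. Of 7 Kupffer cell and macrophage, 4 lymphocyte, 6 erythroid, 6 stellate cell and 5 endothelial genes tested, none passed the threshold in edgeR at ZT8 or ZT20. The macrophage gene Marco, singled out after its values were seen, came nearest, with 0.716 ± 0.403 CPM in WT and 6.06 ± 1.87 in Rev KO at ZT20 (SD, n = 3; adjusted p = 0.0515, edgeR). Of the 5 cholangiocyte markers tested, 1 passed at ZT8 and none at ZT20: Sox9 rose in Rev KO liver at ZT8 (9.64 ± 2.65 against 4.17 ± 0.866 CPM, SD, n = 3; adjusted p = 0.00126, edgeR). Of the 2 pancreas markers tested, Cela1 rose at ZT8 (53.9 ± 8.90 against 27.1 ± 1.42 CPM; adjusted p = 0.00828, edgeR).

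Near the 7 genes, several neighbours differed strongly and were singled out after their values were seen. Slc45a3, a sugar transporter gene 287.5 kb from Ctse, was at 14.5 ± 0.618 CPM in WT and 59.8 ± 4.57 in Rev KO at ZT8 (adjusted p = 1.3e-07, edgeR), and at 76.8 ± 11.0 and 57.3 ± 8.58 at ZT20. Rec8, a meiotic cohesin gene 905.9 kb from Cebpe, was at 0.0453 ± 0.0447 CPM in WT and 2.31 ± 0.824 in Rev KO at ZT20 (adjusted p = 0.0032, edgeR). Pm20d1, 121.9 kb from Ctse, fell from 342 ± 4.84 to 181 ± 2.86 CPM at ZT20 (adjusted p = 1.33e-06, edgeR).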
